A study of Drosophila melanogaster with 2 samples.

Results

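Oli, a basic helix-loop-helix (bHLH) transcription factor of the Olig family in Drosophila melanogaster, was examined here together with 9 other genes that encode motor neuron identity factors: exex, tup, zfh1, vvl, grn, unc-4, HGTX, Lim3 and eve. The 10 genes, out of 13945 protein-coding genes on the 6 chromosome arms, were found by their Ensembl symbols. A peak of Oli occupancy was tied to a gene when that gene had the nearest protein-coding start site or held the peak's summit in its body. By this rule 25 of the 6496 peaks in the filtered list described below belonged to the 10 genes. Oli-bound chromatin was precipitated with an antibody to GFP and sequenced (ChIP-seq) from whole embryos of mixed sex, 6 to 18 h old, of a stable transgenic line whose Oli carries GFP at its C terminus. Both biological replicates came from this line and share its genotype. The samples form 1 group, with no second condition and no treatment, so counts and ranks are described beside those of all peaks or all coding genes, and no test between groups was run.

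Motor neurons of the fly embryo acquire their identity from combinations of transcription factors, most of them homeodomain proteins, that set where the axon leaves the nerve cord and which muscle it reaches. The factors exex, tup, Lim3 and HGTX are known for ventrally projecting motor neurons, while eve, zfh1 and grn are known for dorsally projecting ones. Vertebrate relatives of Oli act in the progenitors of motor neurons, and bHLH proteins bind, as dimers, to short sites called E-boxes (CANNTG). In whole embryos, occupancy in fewer cells and lower occupancy per cell cannot be told apart.

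The sequences at the summits that the results turn on are printed from release 6 of the reference genome (RefSeq sequence, dm6), 5′ to 3′ on the plus strand, with 50 bp on either side of the summit. The first 3 lines are the highest summits of zfh1 (chr3R:30781724-30781824), Oli (chr2L:17583110-17583210) and vvl (chr3L:6823928-6824028), the strongest of all 25. No E-box lies in these 3 windows, so they carry no capitals. The next 4 lines show, with each E-box in capitals, the windows in which an E-box was found outside untranslated sequence: beside the first start site of Oli (chr2L:17588727-17588827), upstream of tup (chr2L:18890233-18890333), and downstream of vvl (chr3L:6807649-6807749 and chr3L:6817095-6817195). These 4 were chosen after their motif content was seen.
zfh1 intron: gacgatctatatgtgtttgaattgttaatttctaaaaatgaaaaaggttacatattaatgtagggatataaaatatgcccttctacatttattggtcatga
Oli distal: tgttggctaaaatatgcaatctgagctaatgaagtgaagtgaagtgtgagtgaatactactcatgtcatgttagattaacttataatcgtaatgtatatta
vvl distal: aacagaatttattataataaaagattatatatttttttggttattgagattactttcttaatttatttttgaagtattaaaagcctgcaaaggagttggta
Oli start: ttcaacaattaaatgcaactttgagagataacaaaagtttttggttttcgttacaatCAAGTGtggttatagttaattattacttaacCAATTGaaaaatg
tup upstream: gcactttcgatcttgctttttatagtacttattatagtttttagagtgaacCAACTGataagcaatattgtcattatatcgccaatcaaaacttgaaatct
vvl downstream, nearer: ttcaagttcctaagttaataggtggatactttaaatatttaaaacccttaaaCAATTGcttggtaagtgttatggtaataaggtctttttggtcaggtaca
vvl downstream, farther: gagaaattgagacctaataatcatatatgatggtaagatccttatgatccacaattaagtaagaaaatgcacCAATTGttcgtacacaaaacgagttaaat
The windows are rich in A and T, and in the tup window and the nearer vvl window the E-box stands almost on the summit. The centre of CAACTG lay 3.5 bp from the tup summit, that of CAATTG 4.5 bp from the nearer vvl summit, and that of CAAGTG 9.5 bp from the Oli summit. In contrast, the nearest E-box lay 202.5 bp from the zfh1 summit (CACATG), 108.5 bp from the distal Oli summit (CAATTG) and 110.5 bp from the distal vvl summit (CAGCTG).

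The deposited lists held 30000 peaks for each replicate and 30000 for the pooled replicates. A further 6496 peaks formed the list passed by the irreproducible discovery rate (IDR), a filter based on how well peak ranks repeat between replicates. The IDR list was the same set as the strongest 6496 peaks of the pooled list. Whether a given peak was in it therefore followed its pooled signal, not its own agreement between replicates. The signal of a peak is the authors' own value and was used only to rank peaks within a list, where rank 1 is the highest signal. No read numbers were used here, and the depth behind each peak is unknown. Intervals on shares of peaks are exact (Clopper-Pearson) 95% intervals over peaks and cover counting error only.

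At least 1 IDR peak was tied to 7 of the 10 genes, against 27.5% of all coding genes. These were Oli, exex, tup, zfh1, vvl, grn and unc-4, whereas HGTX, Lim3 and eve had none. The 10 genes were chosen with earlier results of these data known, so these counts only describe them. The peaks were unevenly spread: vvl had 8, Oli 7 and tup 4, so that these 3 genes held 19 of the 25. At least 4 IDR peaks were found at these 3 of the 10 genes, against 3.46% of all coding genes. Both exex and zfh1 had 2, and grn and unc-4 had 1 each. Each gene has a territory, all positions whose summits this rule would give to it. Per 10 kb of territory the 10 genes had 0.751 IDR peaks over 333.0 kb, against 0.445 over the territories of all coding genes, 169424.5 kb for 13945 genes. Longer territories can take more peaks. The shares of genes with a peak, here and below, are not matched for territory. Oli alone had 3.725 per 10 kb over 18.792 kb. Next came exex with 1.648 and vvl with 1.062, while tup had 0.753, zfh1 0.515, unc-4 0.38 and grn 0.218. The territory of vvl, 75.359 kb, was the longest of the 10. That of grn, with 1 IDR peak, was 45.77 kb. Without Oli the density of the other 9 genes was 0.573.

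**Figure D1:**
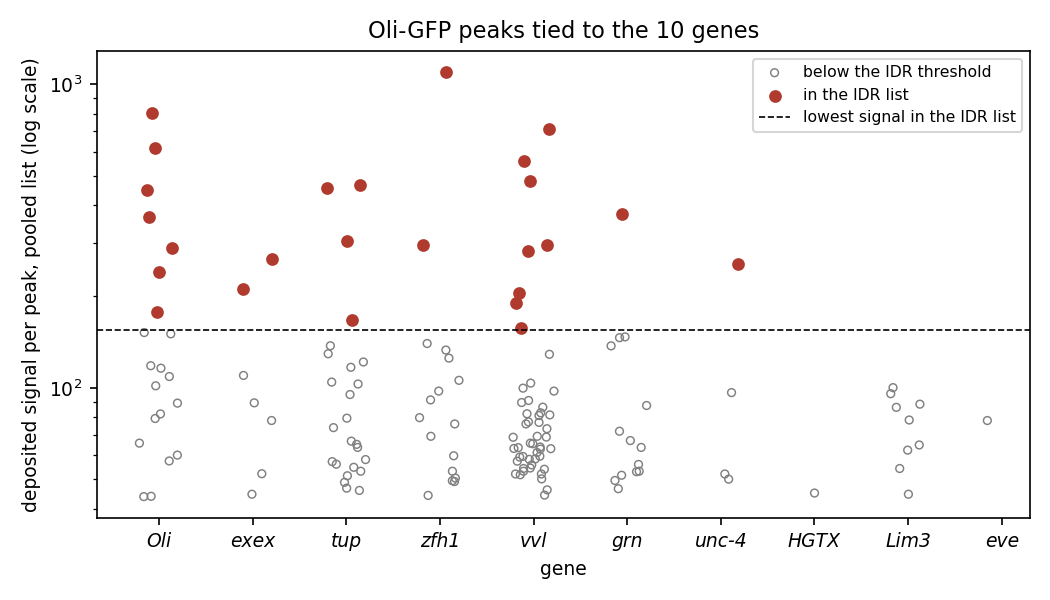
Deposited signal of each pooled peak (vertical axis, log scale) tied to each of the 10 genes (horizontal axis, spread sideways for legibility only), with filled points for peaks in the IDR list, open points for peaks below its threshold, and a dashed line at the lowest IDR signal, 154.8. The highest point is the zfh1 peak at 1096.9, and all points of HGTX, Lim3 and eve lie below the line.

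The same 7 genes had a peak when the strongest 6496 peaks of each replicate were used in place of the IDR list. In replicate 1 this was 7 of 10 genes, against 26.8% of all coding genes, and in replicate 2 it was 7 of 10, against 28.1%. The counts per gene were alike for tup, with 4 peaks in either replicate and in the IDR list, and for unc-4, with 1 in each. They differed most for vvl, which had 11 peaks in replicate 1 and 6 in replicate 2. For Oli the counts were 7 in replicate 1 and 8 in replicate 2, for exex 1 and 2, for zfh1 2 and 3, and for grn 2 and 2. HGTX, Lim3 and eve had 0 in both.

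**Figure D2:**
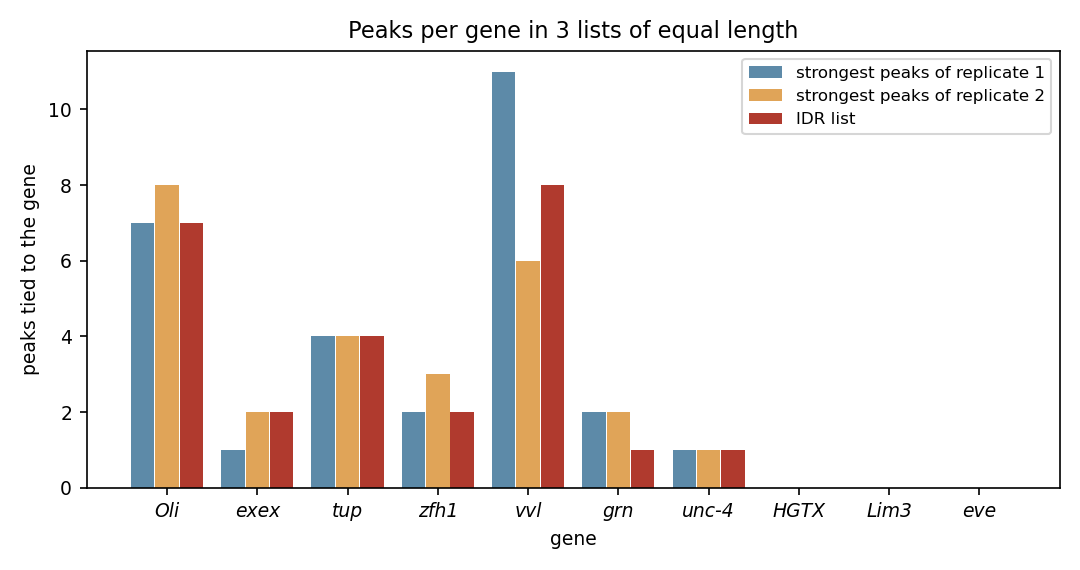
Number of peaks (vertical axis) tied to each of the 10 genes (horizontal axis) in the strongest 6496 peaks of replicate 1, the strongest 6496 of replicate 2, and the IDR list of the same length. The bars of vvl differ most, at 11, 6 and 8 peaks, and HGTX, Lim3 and eve have no bar.

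The Oli gene (FBgn0032651, chr2L:17589184-17591267, plus strand) itself had 7 IDR peaks tied to it, between 15880 bp upstream of its first start site and 810 bp downstream of it. At least as many were found at 0.954% of coding genes. Its upstream neighbour, CG7094, lies 33.42 kb away, and its downstream neighbour, CG6870, 0.05 kb away. The distal peak, 6024 bp upstream, had rank 1040 in replicate 1 (signal 371.3) and rank 706 in replicate 2 (signal 398.4). The narrow peak 407 bp upstream, only 110 bp wide, had ranks 1061 and 1316 (signals 367.6 and 270.6). Both peaks thus ranked among the strongest 3248 of either replicate. The peak 206 bp upstream had rank 1780 in replicate 1 and rank 3512 in replicate 2, and the peak in the 5′ UTR had ranks 2260 and 3050. The 3 remaining peaks, 2331, 10909 and 15880 bp upstream, had ranks of 3066 to 4808 in replicate 1 and 4044 to 6463 in replicate 2. All 7 were among the strongest 6496 peaks of both replicates, and 6 of the 7 ranked better in replicate 1. The distances between neighbouring summits were 4971, 4885, 3693, 1924, 201 and 1016 bp. The line carries added copies of tagged Oli, and their part in these 7 peaks was not tested.

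Several of the Oli summits lay nearer to a non-coding RNA gene than to Oli. The summit at 15880 bp upstream was 1306 bp from the start of mir-287, a microRNA gene. Those at 10909, 6024, 2331 and 407 bp upstream were 1203 bp from lncRNA:CR45698, 749 bp from lncRNA:CR45111, 1758 bp from lncRNA:CR45112 and 57 bp from lncRNA:CR44411. Below the IDR threshold, 14 further pooled peaks were tied to Oli, and 11 of them overlapped a peak in both replicates. The strongest of these, 14.23 kb upstream of Oli, had signal 152.0 and rank 6616, just outside the IDR list, whose lowest signal was 154.8. With IDR and weaker peaks together, Oli had 21 pooled peaks, and 1.86% of coding genes had at least as many.

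The LIM-homeodomain factor gene tup (FBgn0003896, chr2L:18859507-18881261, minus strand), the fly islet gene, had 4 IDR peaks, all upstream of its single start site. The peak 18214 bp upstream was the highest, with signal 466.6 in the pooled list, rank 2070 in replicate 1 (signal 232.7) and rank 1557 in replicate 2 (signal 243.3). The peak 9022 bp upstream, which holds the CAACTG shown above, was nearly as high, with signal 456.1 and ranks 2401 and 1481. Their order in signal was the same in replicate 1 and reversed in replicate 2, so these 2 peaks are not separated by the replicates. Another peak, 18872 bp upstream, overlay an exon of lncRNA:CR44739, 361 bp from the start of that RNA, and had ranks 3296 and 2930. The weakest, 15734 bp upstream with rank 6020 in the pooled list, had rank 5806 in replicate 1 and fell outside the strongest 6496 in replicate 2, at rank 6789. No IDR peak lay within 5 kb of the tup start, whereas the gene's 25 pooled peaks included 21 weaker ones, 14 of which overlapped peaks in both replicates. At least as many pooled peaks were found at 1.35% of coding genes.

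The homeodomain gene exex (FBgn0041156, chr3L:7948186-7951563, plus strand), the fly relative of vertebrate HB9, had 2 IDR peaks, both downstream of the gene. The higher, 1.579 kb beyond its end, had signal 266.3, rank 2934 in replicate 1 (signal 178.9) and rank 5266 in replicate 2 (signal 87.3). The lower, 6.720 kb beyond its end, had signal 211.5, rank 6645 in replicate 1 (signal 87.5) and rank 3925 in replicate 2 (signal 115.6). Each replicate therefore placed a different one of the pair first. Neither was in the stronger 3248 of the IDR list. At the exex start itself the best pooled peak lay 200 bp upstream, below the threshold at rank 9299 (signal 109.8), with rank 9775 in replicate 1 and rank 11484 in replicate 2. A further 2 IDR peaks stood in the 19.02 kb between exex and RNaseX25, at ranks 5387 and 5987, but the start of RNaseX25 was nearer to both.

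The gene zfh1 (FBgn0004606, chr3R:30765926-30789202, plus strand) encodes a zinc-finger homeodomain protein with roles in motor axons and in the mesoderm. It held the strongest peak of the 25, with signal 1096.9 and rank 464, the only one in the top 500. It had rank 589 in replicate 1 (signal 518.6) and rank 370 in replicate 2 (signal 573.2). The summit lay in an intron, 15.848 kb into the gene and 1484 bp upstream of the second of its 2 start sites. The other IDR peak, 4520 bp upstream of the first start site, had signal 295.3, rank 3688 in replicate 1 and rank 2902 in replicate 2. The summits of zfh1 stood 20368 bp apart, and 15 weaker pooled peaks lay around them, 11 of which overlapped both replicates.

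The POU-domain gene vvl (FBgn0086680, chr3L:6790158-6794941, plus strand) acts in neurons and also in the trachea. It had the most IDR peaks of the 10 genes, and 0.71% of coding genes had at least as many. Of its 8 summits, 7 lay downstream of the start, from 7415 to 44625 bp, and 1 lay 12328 bp upstream. None was in the gene. The highest, 33820 bp downstream of the start, had signal 710.5, rank 1113 in replicate 1 (signal 358.5) and rank 874 in replicate 2 (signal 347.6). Next were the peaks 26255 and 26987 bp downstream, 732 bp apart, with ranks 1985 and 992 for the nearer and 1798 and 1677 for the farther. These 3 peaks made up the vvl share of the stronger 3248. The other 5 ranked better in replicate 1 without exception, at 2384 to 5071 there and at 5054 to 12072 in replicate 2. The largest gap was at the peak 40108 bp downstream, with rank 5071 in replicate 1 (signal 111.8) and rank 12072 in replicate 2 (signal 39.5). Its pooled signal, 157.2, was the lowest of the 25.

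The region around vvl extends 117.06 kb to the next coding gene downstream, Prat2, and 3 more IDR peaks in that gap were tied to Prat2. The strongest of the 3, at chr3L:6853519-6853752, had signal 841.6 and rank 723, above every peak tied to vvl. Its summit was 63476 bp from the vvl start and 60330 bp from that of Prat2, so the rule assigned it by a small margin. In the pooled list vvl had 51 peaks, and 0.186% of coding genes had at least as many. Of the 43 below the threshold, 31 overlapped peaks in both replicates. Some shared a replicate peak with an IDR peak. The weaker peak 44825 bp downstream of the start overlapped the same replicate peaks (ranks 4733 and 7371) as the IDR peak at 44625 bp.

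The GATA zinc-finger gene grn (FBgn0001138, chr3R:8147368-8181444, minus strand) had 1 IDR peak, in an intron 9742 bp downstream of its start. Its signal was 374.1, with rank 2954 in replicate 1 (signal 177.8) and rank 2205 in replicate 2 (signal 187.5). At least 1 IDR peak is common, at 27.5% of coding genes, but 14 pooled peaks, as grn had, were reached by 4.07%. The best grn peak below the threshold had rank 6847 and signal 147.1.

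The homeodomain gene unc-4 (FBgn0024184, chrX:17768569-17778708, plus strand) had 1 IDR peak, 6116 bp upstream of its start, with signal 256.6, rank 5016 in replicate 1 (signal 112.9) and rank 3074 in replicate 2 (signal 142.7). Just beyond its end lay 2 stronger ones. The nearer, chrX:17780276-17780691, in the gap between unc-4 and OdsH, a related homeobox gene, had signal 390.9 and rank 2293. Its summit was 1776 bp from the end of unc-4 but 10526 bp from the OdsH start and 11915 bp from the unc-4 start, so it counted for OdsH. The second, at rank 2859 with signal 327.5, lay 8814 bp from the OdsH start. By the rule the 3 weaker pooled peaks of unc-4 ranked no better than 10748.

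HGTX, Lim3 and eve were without IDR peaks, but each had pooled peaks, so that all 10 genes had at least 1, against 55.6% of all coding genes. HGTX (FBgn0040318, chr3L:14583222-14599540, minus strand), the fly Nkx6 homeodomain gene, had 1, in an intron, with signal 45.0 and rank 28898 of 30000. It overlapped no peak of either replicate. There were 4 IDR peaks between HGTX and its coding neighbours, but 3 of them stood 361, 561 and 1344 bp from the start of shd and the fourth was tied to CG42758. The LIM-homeodomain gene Lim3 (FBgn0002023, chr2L:19079256-19108427, minus strand) had 9 pooled peaks, 6 of which overlapped both replicates, a number reached by 7.89% of coding genes. The highest, in an intron, had signal 100.1 and rank 10279, with rank 11311 in replicate 1 and rank 10328 in replicate 2. Another, in the 5′ UTR 172 bp from the first of 6 start sites, had signal 78.3 and rank 13702. Lim3 thus had more pooled peaks than exex or unc-4, which were in the IDR list, but none as high.

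The homeodomain gene eve (FBgn0000606, chr2R:9979319-9980795, plus strand) is known for dorsal motor neurons as well as for segmentation. Its only pooled peak, chr2R:9981515-9981930, had a summit 2404 bp downstream of the start, signal 78.0 and rank 13786. In replicate 1 it had rank 11396 (signal 55.0) and in replicate 2 rank 26856 (signal 21.7). No IDR peak lay anywhere between the coding neighbours of eve (16.4 kb) or of Lim3 (31.1 kb). The absence of an IDR peak is a statement about this threshold and the unknown depth, not about occupancy in a few cells.

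**Figure D3:**
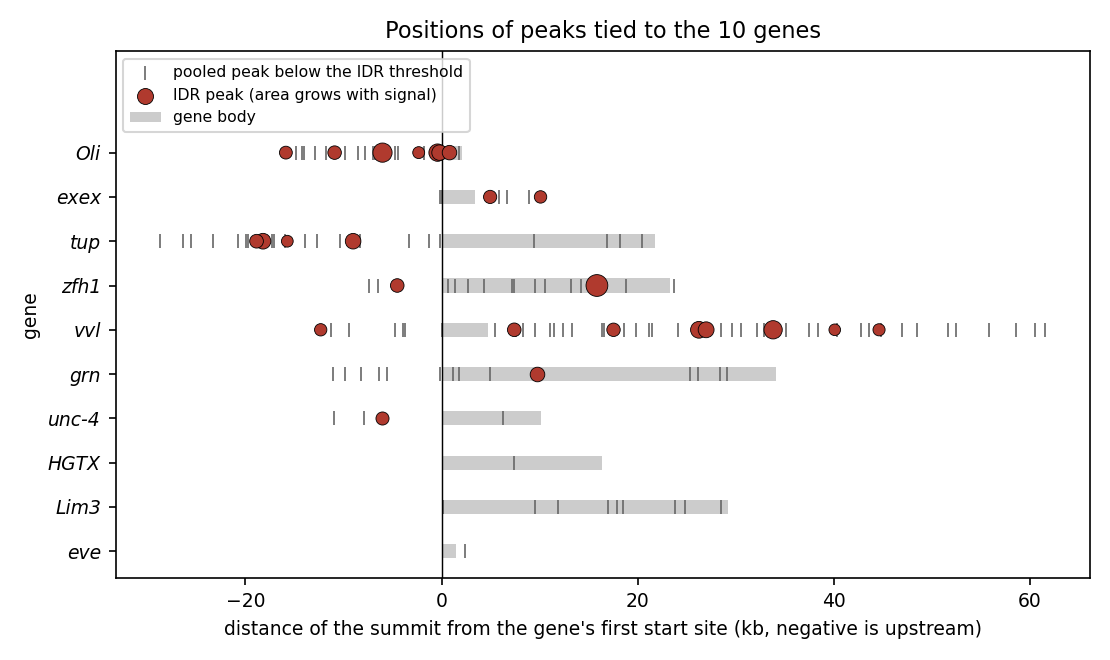
Position of each summit tied to the 10 genes, in kb from the gene's first start site (horizontal axis, negative is upstream), with gene bodies in grey, IDR peaks as discs whose area grows with signal, and weaker pooled peaks as ticks. The tup discs lie upstream, 7 of the 8 vvl discs downstream beyond the gene, and Oli has 3 discs within 500 bp of its own start sites.

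Most of the 25 summits lay away from start sites. Only 4 (16.0%, interval 4.54 to 36.1%) were within 500 bp of any annotated start, against 35.9% of all IDR summits. All 4 were in the stronger 3248, where the share was 30.8% (4 of 13), against 41.8% of all summits there. Of these 4, 3 were at Oli and 1 was at the RNA CR44739 beside tup. None of the other 8 genes had an IDR peak within 500 bp of a start, and HGTX, Lim3 and eve had no IDR peak at all. Without Oli the share was 5.56%. Weaker pooled peaks did lie at starts, as at grn, 178 bp upstream (rank 6890, signal 146.2), and at exex, 200 bp upstream (rank 9299). Summits more than 5 kb from a coding start made up 72.0% of the 25 (18 peaks, interval 50.6 to 87.9%), against 27.8% of all IDR summits. The position class differed in the same way: 84.0% (21 peaks, interval 63.9 to 95.5%) lay between genes, against 37.3% of all, and 8.0% (2 peaks, at zfh1 and grn) in introns, against 54.0%. By side, 13 lay upstream of the gene, 3 in it and 9 downstream. Peaks of the same gene share a neighbourhood, and 19 of the 25 belong to 3 genes, so these shares do not rest on 25 independent sites. Those 3 genes also border wide gaps without coding genes: 117.06 kb at vvl, 35.08 kb at tup and 33.42 kb at Oli. How much of each territory is distal or intergenic is not given here, so the shares do not show a preference for such positions.

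In strength the 25 peaks were close to the list as a whole. Their median signal was 295.3, against 295.2 for all IDR peaks, and their median rank 3247, against 3248.5. The stronger 3248 held 13 of the 25 (52.0%). The top 500 held 4.0% of the 25, against 7.70% of all IDR peaks. The 7 Oli peaks had a median signal of 366.4, and the other 18 one of 295.1. The commonest width in the lists was 416 bp, and the 9 narrower peaks of the 25 ranked between 464 and 3431 in the pooled list.

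The replicates placed these peaks in similar order. All 25 overlapped a peak in both replicate lists, as did 99.5% of all IDR peaks. Among the strongest 6496 of both replicates were 84.0% of the 25 (21 peaks, interval 63.9 to 95.5%), against 82.3% of all. The 4 that were not were the lower exex peak in replicate 1, and the weakest tup peak and 2 weak vvl peaks in replicate 2. The larger of the 2 ranks was a median of 1.35 times the smaller, and at most 2.38 times. Both replicate summits stood within 50 bp of the pooled summit at 20 of the 25. Across the 25 peaks the 2 ranks had a Spearman rho of 0.775. It is given as a description, since the replicates share a control and the peaks were selected by the pooled signal of both. Replicate 1 gave the better rank at 13 peaks and replicate 2 at 12.

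**Figure D4:**
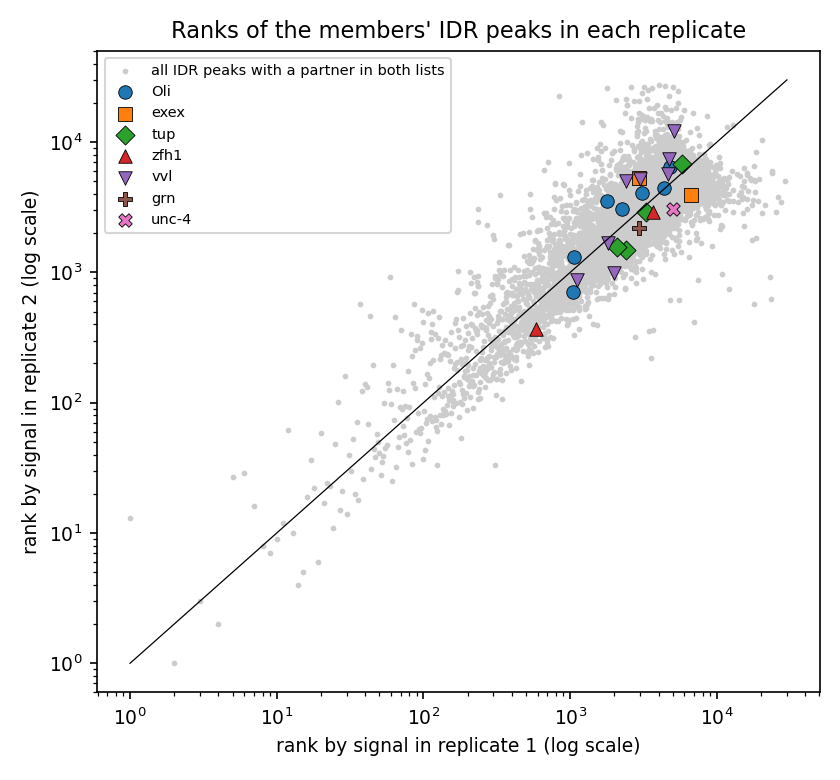
Rank by signal in replicate 1 (horizontal axis, log scale) and replicate 2 (vertical axis, log scale) of the 25 IDR peaks of the 7 genes, as coloured symbols, over all IDR peaks with a partner in both lists, as grey points, with the line of equal rank. The zfh1 intron peak is nearest the lower left at ranks 589 and 370, and the vvl symbol farthest above the line has ranks 5071 and 12072.

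Base composition at the summits was low in G and C. Within 50 bp of the summit the mean GC content was 28.6% (SD 6.27, n = 25 peaks), against 30.9% (SD 8.21) over all IDR summits. The window centred 500 bp to the right had 44.9% (SD 9.22), against 43.5% for all IDR peaks, and that to the left 44.6%, against 43.6%. GC content was lower at the summit than to its right at 22 of the 25 (88.0%), against 83.0% of all. The lowest was 19.8%, at the Oli summit 15880 bp upstream, and the highest 49.5%, at the Oli summit 2331 bp upstream, so both extremes belonged to the same gene. The dip was narrow: 100 bp to either side of the summit the mean was 36.32% and 37.19%, against 37.81% and 38.51% over all IDR peaks.

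**Figure D5:**
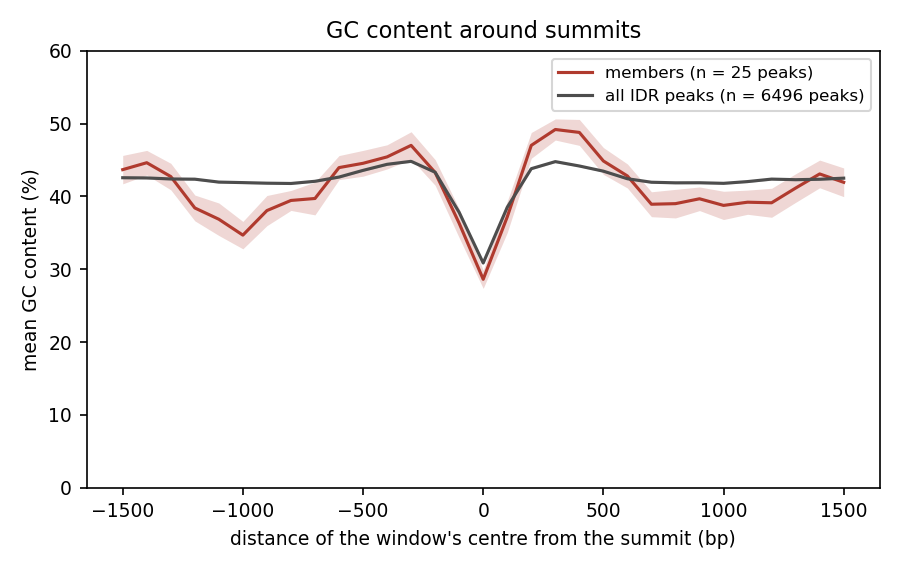
Mean GC content (vertical axis, percent) in windows of 101 bp against the distance of the window's centre from the summit (horizontal axis, bp), for the 25 peaks of the 7 genes (red, band of 1 standard error over peaks) and all 6496 IDR peaks (grey). Both lines fall at the summit, to 28.63% for the 25 peaks and 30.86% for all.

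E-boxes (CANNTG, which reads as an E-box on both strands) were counted in 10 classes at these summits and beside them. At least 1 lay within 50 bp of 5 of the 25 summits (20.0%, interval 6.83 to 40.7%), against 32.3% of all IDR summits. The share was 30.8% (4 of 13) in the stronger 3248, against 31.9% of all summits there. Within 100 bp it was 48.0%, against 56.2% of all IDR summits, and within 25 bp 12.0%, against 16.5%. In the equally wide window to the right there was one at 10 of the 25 (40.0%), against 41.7% of all, and to the left at 11 (44.0%), against 40.7%. The 5 summits were 2 of Oli, 2 of vvl and 1 of tup, and neither exex, zfh1, grn nor unc-4 had one. Around the unc-4 summit no E-box lay within 500 bp. Among the 25, CAATTG was the commonest class, at 3 summits (12.0%, interval 2.55 to 31.2%), against 3.97% of all. CAAATG, the commonest class over all IDR summits (10.6%), was at 0 of the 25 (interval up to 13.7%). To the right CAAATG was at 24.0% of the 25, against 10.6% of all. CAACTG was at 1 summit, CAAGTG was at 1, and CAGATG was at 1. CATATG, the class often named for Olig proteins in vertebrates, was at 0 of the 25 (interval up to 13.7%), against 4.0% of all. Other letters were counted on both strands in the same windows. The homeodomain core TAATTA was at 4 summits (16.0%), against 12.3% of all, and was found at 4.0% to the right, against 6.39%. AGATAA, the site of GATA factors such as grn, was at 2 (8.0%), against 9.64%. CAGGTA was at 2 (8.0%), against 1.85%, and CAGTG at 1 (4.0%), against 16.0%. ATGCAAAT, the octamer of POU proteins, was at none, against 1.60%. None of these 5 strings is contained in an E-box. These are matches of letters, not mapped sites. Mean GC content was 28.6% at the 25 summits and 44.9% to their right. Its part in the motif shares was not tested.

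Below the threshold the 10 genes had 125 further pooled peaks. Of their 150 pooled peaks 16.7% were in the IDR list, against 21.7% of all pooled peaks. Of the 125, 86 (68.8%) overlapped a peak in both replicates, against 61.9% of the 23504 pooled peaks outside the IDR list. Per 10 kb the 10 genes had 4.504 pooled peaks, against 2.113 for all coding genes. Of the 150, 97 were at vvl, tup and Oli, and 4 of the 150 had summits in coding exons.

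Beside the 10 factors, other lists of genes, also chosen with earlier results of these data known, were read by the same rule. Of 13 genes for axon guidance, adhesion and transmission in motor neurons, 12 had an IDR peak, against 27.5% of all coding genes. The median was 1.5 peaks a gene for the 10 factors, 4.0 for these 13 genes and 0 for all coding genes. The density was 0.751 per 10 kb for the factors, over 333.0 kb, and 0.812 for the 13 genes, over 665.0 kb. The highest were at the netrin receptor genes fra (8 peaks, best rank 424) and unc-5 (9 peaks, best rank 508) and at Sema1a, a transmembrane semaphorin (10 peaks, best rank 594). Only beat-Ia had none. Of 20 columnar and interneuron homeobox genes, 11 had a peak (55.0%), with a density of 0.236. Of the 804.7 kb of territory behind this density, 194.9 kb belonged to scro, which had no pooled peak of any strength. The highest peaks of this list were at otp (best rank 504), ems (1143) and Dr (1719). Of 18 other bHLH genes, 4 had a peak (22.2%), led by nau (1964), net (2455) and twi (3526), with a density of 0.172. By the best rank, then, zfh1 (464) stood between fra and otp, and Oli was the bHLH gene with the most peaks among those read. The best peaks of fra, otp, nau and twi counted only because their summits lay in the gene body. The nearest coding starts to them were those of CG33752, Cib2, CG10300 and CG9896.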

How the data were processed

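Peak lists of 2 biological replicates, of the pooled replicates and of the IDR filter on dm6 were deposited by the authors. Per the accompanying file notes, the lists were made from alignments and share a control, which was not analysed here. No aligner or peak caller is named in the labels or file notes. The deposited signal of a peak is the authors' own value, with no further scaling stated. The deposited −log10 q-value ran from 2.59 to 3.73 in the IDR list and was not used for ranking. Replicate peaks were those overlapping an IDR peak by at least 1 bp, with the nearest summit. No replicate was left out or imputed, and p-values were not computed.

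Genes and start sites came from Ensembl release 115 (BDGP6 annotation 54, transposable elements left out) and sequence from genome release 6. Coordinates count from 1. The members and lists were chosen with earlier results of these data known. All 61 list symbols were found, 2 under newer names. Every member was named, with the highest peak in full, and up to 3 genes per list by highest signal. The alternatives were a stricter and a looser list, either assignment rule alone, other windows, and either replicate alone. Leaving out Oli, and counting all summits between the neighbouring coding genes, were added after the data were seen. The nearest-start lookup was checked at random and planted positions, and the E-box pattern on simulated sequence. Counts per gene were not tested in this way. Python 3.11.15, numpy 2.4.6, pandas 2.3.3, scipy 1.17.1 and matplotlib 3.10.9 were used.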

Additional observations from a re-analysis of the deposited data

How the results depend on the processing

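The 25 IDR peaks of the 10 genes, at 7 genes, stayed 25 at 7 genes when only the nearest coding start counted. They became 3 (at 3 genes) when only summits inside gene bodies counted, 13 in the stronger 3248, and 150 in the whole pooled list. The share of all coding genes with a peak in the body alone is not given here, so 3 of 10 cannot be set beside 27.5%. Either replicate alone gave 26 to 28 peaks at 7 genes. Peaks per 10 kb (0.751) became 0.39 in the stronger 3248, 4.5 in the pooled list (against 2.113 for all coding genes) and 0.573 without Oli. With either replicate alone they were 0.781 to 0.841, against 0.447 and 0.445 for all coding genes. No density of all coding genes is given for the stronger 3248. The share among the strongest peaks of both replicates (84.0%) became 100% in the stronger 3248 and 100% over whole replicate lists, and was 64.0% with a larger required overlap, 50% of both peaks. The share within 500 bp of a start (16.0%) became 30.8% in the stronger 3248 (against 41.8% of all summits there), 8.0% within 200 bp, 20.0% within 1000 bp (against 21.0% and 46.6% of all IDR summits), and 5.56% without Oli, with 14.3 to 19.2% for either replicate alone. The E-box share (20.0%) became 30.8% in the stronger 3248 (against 31.9%), 12.0% within 25 bp (against 16.5%) and 48.0% within 100 bp (against 56.2%), with 19.2 to 28.6% for either replicate alone. Mean GC content (28.6%) became 31.0% within 100 bp, with 28.6 to 31.0% for either replicate alone. Leaving out Oli (18 peaks, 6 genes) and counting every summit between the neighbouring coding genes (36 peaks, 8 genes) were chosen after seeing the data. For the second, no share of all coding genes is given. The cause of these moves was not tested, apart from lists and windows that are longer or shorter by construction. No paired analysis was possible because there is 1 group. Unknown depth limits what the missing IDR peaks of HGTX, Lim3 and eve can show.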
